A study of Mus musculus with 6 samples.

Results

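The genes described here encode the proteins of the mitochondrial ribosome. They were taken as every protein-coding gene whose GENCODE M21 symbol is Mrpl or Mrps followed by a digit, which gave 78 of the 54752 genes listed in each library's table. By textbook assignment 51 belong to the large subunit, 26 to the small subunit and 1, Mrps36, to neither. Mrps36 carries the ribosomal name but is known as a component of the 2-oxoglutarate dehydrogenase complex. Mrps30 and Mrps18a carry small subunit names but sit in the large subunit, and they are counted there. A further 5 annotated processed pseudogenes with the same symbol pattern were left out. The members lie on 17 chromosomes, with 11 on chromosome 11.

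The libraries were made from the line 3T3-L1, mouse embryo fibroblasts that are able to differentiate into fat cells in a dish. There were 3 libraries from adipocytes and 3 from preadipocytes, assigned by their titles and cell type labels. Per the labels, all 6 carry the strain C57BL/6J, the tissue embryo, no treatment and a shared medium text that includes the unexplained abbreviation DMI. The source name reads Adipocyte for every sample, and the sources used here do not give the harvest day, the RNA selection or the strand setting. A cell line is a single genetic source. Whether the libraries of a group came from independent cultures is not stated, so the p-values rest on a spread between libraries that may be only technical.

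Mitochondrial ribosomes translate the few proteins encoded by mitochondrial DNA, all of them parts of the respiratory chain or the ATP synthase. Their rRNAs are made inside the organelle, whereas all of their proteins are encoded in the nucleus, made in the cytosol and imported. Many of these proteins descend from bacterial ribosomal proteins, and the rest were added during the evolution of mitochondria. Fat cells are known to gain mitochondria as they differentiate.

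Library totals ran from 22496486 to 26314076 expected counts, and the members took 0.463%, 0.430% and 0.415% of counts in adipocyte libraries against 0.222%, 0.207% and 0.208% in preadipocyte libraries. No member had fewer than 65 counts in any library, and all 78 passed the filter on low counts. The 7 adipocyte markers checked were all higher in adipocytes and the 6 preadipocyte markers all lower, led by the lipid droplet gene Cidec and the preadipocyte gene Dlk1 (edgeR log2 fold changes of 15.21 and -4.53). All 7 proliferation markers were lower in adipocytes, Mki67 most (log2 fold change -3.68), and their summed level was 74.3, 73.7 and 69.6 CPM in adipocytes against 231.6, 227.1 and 230.4 CPM in preadipocytes. Their part in the member results was not tested. Other cell types were near 0: the macrophage markers summed to 0.95 to 1.68 CPM in adipocytes and 1.86 to 2.40 CPM in preadipocytes, with Adgre1 at 0 throughout and Csf1r lower in adipocytes (log2 fold change -3.29). Cd68 leaned the other way and was not called (log2 fold change 0.51, adjusted p = 0.147, edgeR). Lyz2 averaged 0.40 CPM in adipocytes and 0.20 CPM in preadipocytes and was too low to be tested. Endothelial markers summed to at most 1.42 CPM in any library. Of the skeletal muscle markers Myod1, Myog, Ckm and Myh4 were at 0 in every library, and Acta1 reached 1.95 CPM in adipocytes (log2 fold change 4.03). Adipocyte library 2 stood apart in nuclear-annotated rRNA, at 0.731% of counts against 0.0428% to 0.0706% in the other libraries.

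Mitochondrial ribosomal protein genes were higher in adipocytes almost without exception. Of the 78 members, 75 were called higher in adipocytes, 0 lower and 3 not called (edgeR quasi-likelihood test, Benjamini-Hochberg adjusted p below 0.05 over 14726 genes). Over all genes tested, 73.5% were called, 35.7% higher and 37.9% lower. The median log2 fold change of the members was 1.27, with quartiles of 0.98 and 1.62, beside -0.06 over all genes tested. A rise of at least 1 on the log2 scale was called for 58 members, against 19.3% of all genes. The 3 adipocyte values lay above the 3 preadipocyte values in CPM (counts scaled to a common library size with TMM factors) for 75 members, against 36.8% of all genes, and below them for 0 members, against 39.7%. In a bulk sample, a change in the make-up of the culture and a change in RNA per cell cannot be told apart.

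The size of the rise depended on how the libraries were scaled. TMM factors were 0.88 to 0.90 in adipocyte and 1.11 to 1.13 in preadipocyte libraries. With total counts alone, the fold change of the median gene shifted by -0.33 and the members' median was 0.94 beside -0.39 over all genes, with 72 members called higher and 3 lower (all genes: 26.6% and 50.8%). On log2(TPM + 1) with limma, the median gene shifted by -0.48 and the members' median was 0.80 beside -0.42 over all genes, with 68 members called higher and 4 lower (all genes: 22.2% and 56.6%). Of all calls, 48.5% were higher with TMM, 34.3% with total counts alone and 28.2% on log2(TPM + 1).

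**Figure D1:**
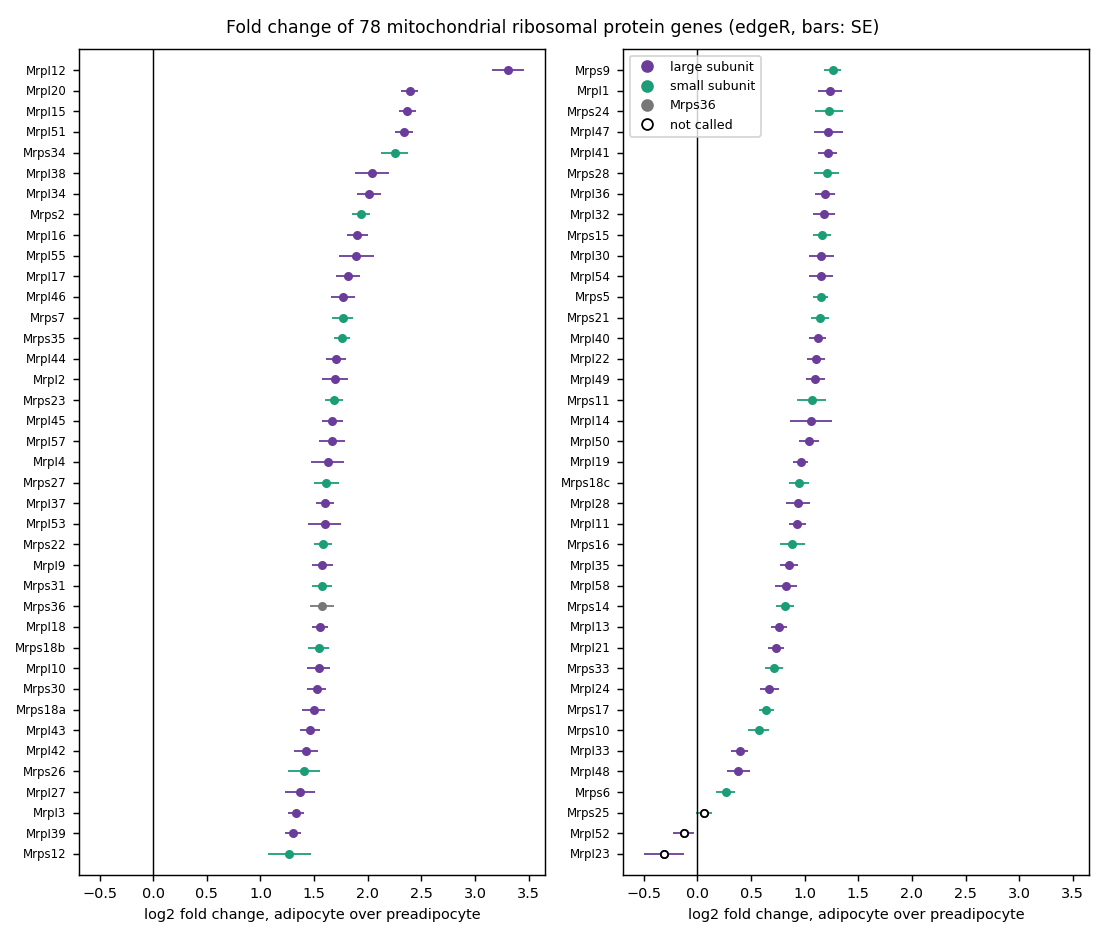
edgeR log2 fold changes (adipocyte over preadipocyte, bars: SE, 3 libraries per group) of the 78 genes in order, coloured by subunit, with open circles for genes not called. Mrpl12 stands above the rest at 3.31, and Mrps25, Mrpl52 and Mrpl23 lie around 0.

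In the large subunit 49 of 51 members were called higher, with a median log2 fold change of 1.33, and in the small subunit 25 of 26, with a median of 1.22. Members with bacterial homologues were called higher in 45 of 46 cases with a median of 1.18, and mitochondria-specific members in 29 of 31 cases with a median of 1.52. The mitochondria-specific class includes Mrps18a and Mrps18b, although both are relatives of a bacterial protein. The difference between the classes was not tested.

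Mrpl12 changed most. It encodes the homologue of the bacterial stalk protein that recruits translation factors to the ribosome, and the human protein has also been reported to bind the mitochondrial RNA polymerase. Its level was 337.7, 262.9 and 243.0 CPM in adipocytes, against 32.0, 25.8 and 27.2 CPM in preadipocytes. All 3 adipocyte libraries were far above all 3 preadipocyte libraries, with library 1 highest in each group. The log2 fold change was 3.31 (SE 0.15, adjusted p = 9.94e-08, edgeR), a 9.91-fold difference. Per length, Mrpl12 averaged 320.9 ± 48.7 TPM in adipocytes and 45.5 ± 3.27 TPM in preadipocytes (SD, n = 3 each), which placed it at rank 2 of the members in adipocytes and at rank 41 in preadipocytes. It made up 6.58% ± 0.58 of the summed large subunit TPM in adipocytes and 1.80% ± 0.10 in preadipocytes (SD, n = 3 each). Without Mrpl12 the summed TPM of the other members was still 1.70-fold higher in adipocytes.

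The next members by fold change were Mrpl20, Mrpl15, Mrpl51, Mrps34 and Mrpl38. Mrpl20, whose bacterial homologue binds rRNA early in assembly, was at 89.1, 93.9 and 90.9 CPM in adipocytes against 17.1, 16.9 and 18.2 CPM in preadipocytes. These values were tight within each group and 5.24-fold apart (log2 fold change 2.39, SE 0.08). Mrpl15, another protein with a bacterial homologue, was at 157.1, 156.4 and 150.9 CPM in adipocytes against 29.4, 32.1 and 28.4 CPM in preadipocytes (log2 fold change 2.37, SE 0.08). Mrpl51, a mitochondria-specific large subunit protein, was at 215.8, 200.6 and 198.5 CPM in adipocytes against 43.7, 38.0 and 39.8 CPM in preadipocytes (log2 fold change 2.34, SE 0.08). The groups of each of these genes were far apart. Mrps34, a mitochondria-specific small subunit protein whose loss in humans causes a mitochondrial disease, was at 116.5, 93.2 and 87.8 CPM in adipocytes against 22.8, 19.9 and 19.7 CPM in preadipocytes (log2 fold change 2.25, SE 0.12). Mrps34 shares 35.6% of its 31-base words with the neighbouring gene Nme3 and overlaps Mapk8ip3 on the opposite strand over 63.4% of its exonic bases, so its count is uncertain without a strand setting. Mrpl38, a protein of the central protuberance, was at 101.4, 73.0 and 73.7 CPM in adipocytes against 23.1, 17.5 and 19.8 CPM in preadipocytes (log2 fold change 2.04, SE 0.16).

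Only 3 members were not called. Mrps25, a mitochondria-specific small subunit protein, was at 69.3, 62.3 and 61.5 CPM in adipocytes and 63.5, 60.7 and 61.1 CPM in preadipocytes. These ranges overlapped (log2 fold change 0.06, SE 0.08, adjusted p = 0.501), and the direction turned under upper-quartile scaling (-0.07), with total counts alone (-0.27) and on log2(TPM + 1) (-0.32). Under the last 2 settings Mrps25 was called lower in adipocytes (adjusted p = 0.00794 with edgeR and 0.0105 with limma). Mrps25 overlaps Nr2c2 on the opposite strand over 69.8% of its exonic bases, and Nr2c2 was lower in adipocytes (log2 fold change -0.64). Mrpl52, a mitochondria-specific large subunit protein, was at 18.8, 17.3 and 16.8 CPM in adipocytes and 20.9, 18.3 and 18.6 CPM in preadipocytes. Its groups overlapped narrowly in CPM (log2 fold change -0.13, SE 0.10, adjusted p = 0.257), while its TPM was 92.7, 88.3 and 87.6 in adipocytes against 143.2, 153.0 and 136.8 in preadipocytes. Mrpl23, the homologue of a bacterial protein at the exit of the peptide tunnel, was at 3.42, 3.22 and 2.81 CPM in adipocytes and 4.81, 3.52 and 3.41 CPM in preadipocytes. The fold change was not distinguishable from 0 (log2 fold change -0.31, SE 0.18, adjusted p = 0.151). Both Mrpl52 and Mrpl23 were called lower in adipocytes under upper-quartile scaling (-0.26 and -0.44, where 43.1% of all genes were lower and 31.7% higher), with total counts alone (-0.45 and -0.64) and on log2(TPM + 1) (-0.68 and -0.67), so for them, as for Mrps25, the call depends on the scaling.

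Mrps6, Mrpl48 and Mrpl33 were called higher by the smallest amounts. Mrps6, a homologue of a bacterial small subunit protein, was at 178.3, 166.1 and 155.3 CPM in adipocytes and 149.8, 129.4 and 136.9 CPM in preadipocytes. The groups were separate but close (log2 fold change 0.26, SE 0.09, adjusted p = 0.0215, edgeR). The call was lost when adipocyte library 2, preadipocyte library 2 or preadipocyte library 3 was left out (adjusted p = 0.0549, 0.0932 and 0.0754, edgeR). It was also lost under upper-quartile scaling (adjusted p = 0.194, edgeR). Its direction turned with total counts alone (-0.06) and on log2(TPM + 1) (-0.25), where Mrps6 was called lower in adipocytes. Mrpl48, a mitochondria-specific large subunit protein, was at 24.34, 21.07 and 19.99 CPM in adipocytes and 17.7, 17.1 and 15.5 CPM in preadipocytes (log2 fold change 0.38, SE 0.11). It too turned on log2(TPM + 1), to -0.06. Its call was lost under upper-quartile scaling, with total counts alone and without preadipocyte library 3 (adjusted p = 0.0579, 0.63 and 0.0507, edgeR). Mrpl33, a homologue of a small bacterial protein, was at 55.1, 54.9 and 60.5 CPM in adipocytes and 46.0, 42.9 and 40.9 CPM in preadipocytes (log2 fold change 0.39, SE 0.08), and its call was lost with total counts alone (0.07) and on log2(TPM + 1) (0.15).

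**Figure D2:**
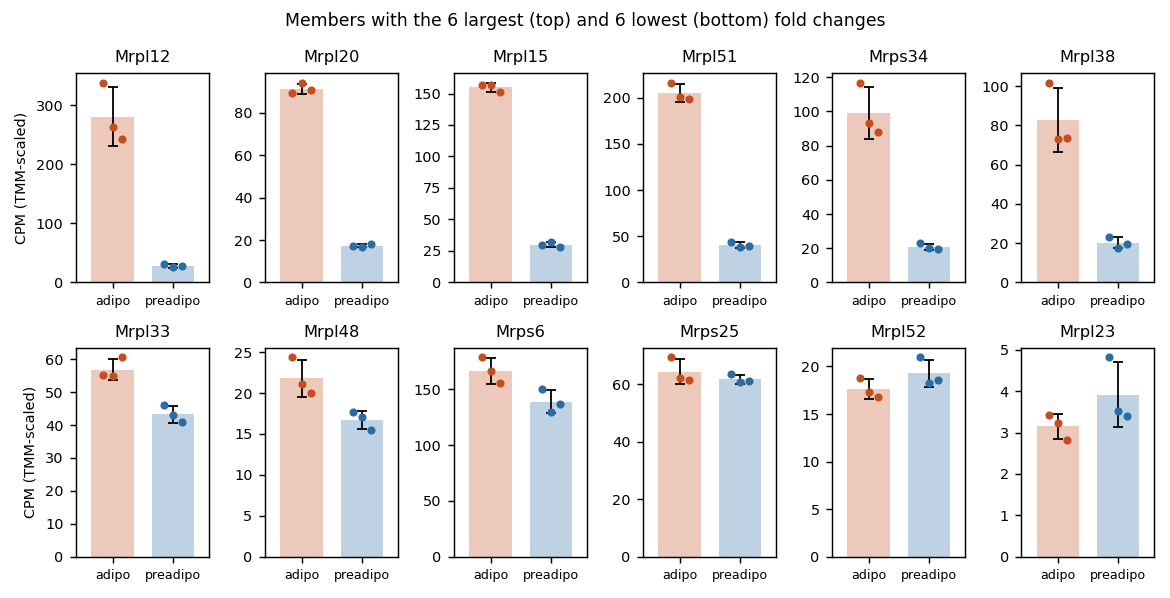
TMM-scaled CPM per library of the 6 genes with the largest (top) and the 6 with the lowest (bottom) fold changes. Points are libraries, bars are means and whiskers SDs (n = 3). The top row has adipocyte libraries far above preadipocyte libraries, as for Mrpl20 at 89.1 to 93.9 against 16.9 to 18.2, and in the bottom row the groups of Mrps25, Mrpl52 and Mrpl23 overlap.

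Several members have roles beyond the common core, and these were examined by name. Mrpl45, which ties the ribosome to the inner membrane at the tunnel exit, was at 69.0, 61.5 and 58.9 CPM in adipocytes against 21.5, 18.7 and 19.4 CPM in preadipocytes (log2 fold change 1.67, SE 0.10). Mrpl58, a peptidyl-tRNA hydrolase that frees stalled ribosomes, was at 24.6, 20.4 and 20.4 CPM in adipocytes against 12.5, 12.4 and 12.0 CPM in preadipocytes, a smaller rise (log2 fold change 0.82, SE 0.10). Mrps12, the decoding-centre protein, was at 25.98, 19.85 and 17.74 CPM in adipocytes against 11.2, 7.1 and 8.1 CPM in preadipocytes, with library 1 highest in both groups (log2 fold change 1.27, SE 0.20). The genes Mrps18a, Mrps18b and Mrps18c all encode relatives of the same bacterial protein and occupy different places in the ribosome. Their log2 fold changes were 1.49 (SE 0.11), 1.54 (SE 0.10) and 0.95 (SE 0.09). Mrps18c, the one at the place of the bacterial protein, shares 32.8% of its 31-base words with other annotated genes. Mrps30 in the large subunit rose by a log2 fold change of 1.52 (SE 0.09). Mrps36 was at 41.4, 51.2 and 46.4 CPM in adipocytes against 13.8, 16.7 and 16.3 CPM in preadipocytes (log2 fold change 1.57, SE 0.11), which is inside the range of the ribosomal members.

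A second fit asked whether a member moved more or less than the pool of members, by taking the summed member counts as the library size. By this measure 23 members gained share in adipocytes (16 large, 7 small), 30 lost share (18 large, 12 small) and 25 were not called (edgeR, adjusted p below 0.05). Over all genes tested with the same library sizes, 11.4% were higher and 79.9% lower. The member sum was itself 2.58-fold higher in adipocytes in CPM, which lowers all other genes on this scale. Those percentages are therefore no reference for the members. Members scaled to their own sum cannot all gain or all lose share. The changes in share were mostly modest, with 53 of 78 members within 0.5 and 32 within 0.25 of 0 on the log2 scale. Mrpl12 gained most, by 1.94 (SE 0.10), followed by Mrpl20 at 1.03 (SE 0.09), Mrpl15 at 1.01 (SE 0.09) and Mrpl51 at 0.98 (SE 0.07). Mrpl23 at -1.67 (SE 0.16), Mrpl52 at -1.49 (SE 0.07), Mrps25 at -1.31 (SE 0.06) and Mrps6 at -1.10 (SE 0.06) lost most.

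In TPM, which allows levels to be compared between genes, the members summed to 7464 ± 412 in adipocytes and 4237 ± 85.9 in preadipocytes (SD, n = 3 each), a ratio of 1.76. The large subunit summed to 5203, 4734 and 4651 TPM in adipocytes against 2588, 2491 and 2499 TPM in preadipocytes. The small subunit summed to 2628, 2441 and 2382 TPM in adipocytes against 1702, 1626 and 1638 TPM in preadipocytes. Neither pair of groups overlapped, with ratios of 1.925 and 1.501. The median member was at 77.6 ± 3.77 TPM in adipocytes and 47.6 ± 0.44 TPM in preadipocytes (SD, n = 3 each). Averaged over all 6 libraries, Mrpl51, Mrpl33 and Mrpl12 led the large subunit and Mrps6, Mrps21 and Mrps33 the small subunit, but the order differed between the groups. In adipocytes the leading large subunit members were Mrpl51 (321.5 TPM), Mrpl12 (320.9 TPM) and Mrpl17 (243.2 TPM), and in preadipocytes Mrpl33 (177.3 TPM), Mrpl52 (144.4 TPM) and Mrpl17 (106.2 TPM). Mrps6 and Mrps21 led the small subunit in both groups, followed by Mrps34 (166.6 TPM) in adipocytes and Mrps33 (114.7 TPM) in preadipocytes. Mrps21 was at 224.4, 223.4 and 213.1 TPM in adipocytes against 136.7, 147.6 and 134.2 TPM in preadipocytes. Mrps33 overlapped in TPM, at 131.6, 120.9 and 125.5 in adipocytes and 128.1, 105.3 and 110.8 in preadipocytes, although it was called higher on counts (log2 fold change 0.72, SE 0.08). In TPM, 69 members lay wholly higher in adipocytes and 4 wholly lower, namely Mrps6, Mrps25, Mrpl52 and Mrpl23, against 23% and 56.7% of all genes.

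The balance of the subunits also differed in TPM. The mean TPM per large subunit member divided by that per small subunit member was 0.998 ± 0.011 in adipocytes and 0.778 ± 0.0029 in preadipocytes (SD, n = 3 each). Mrps6 alone was 12.7% ± 0.21 of small subunit TPM in adipocytes and 22.6% ± 0.44 in preadipocytes. Without Mrpl12 and Mrps6 the ratio was 1.047 ± 0.0043 in adipocytes and 0.968 ± 0.0039 in preadipocytes, a smaller difference. With the median TPM over members in place of the mean, the ratio was 0.912, 1.047 and 0.982 in adipocytes. In preadipocytes it was 0.896, 0.876 and 0.863, so by medians the groups nearly touched.

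The members' direction was opposite to that of most genes with cytosolic ribosomal protein symbols. This set was taken by symbol alone, as the 98 protein-coding genes named Rpl or Rps followed by a digit. Genes with such symbols that are not ribosomal proteins were not removed. The set includes Rpl36a-ps1 and leaves out Fau. Of the 92 genes of the set that were tested, 76 were called lower in adipocytes and 7 higher. Their median log2 fold change was -0.99, and it stayed below 0 with total counts alone (-1.32) and on log2(TPM + 1) (-1.504). The cytosolic set summed to 42459 ± 3558 TPM in adipocytes and 122088 ± 9221 TPM in preadipocytes (SD, n = 3 each). The members' summed TPM equalled 17.1%, 17.8% and 17.9% of the cytosolic sum in adipocytes, against 3.27%, 3.61% and 3.56% in preadipocytes. This ratio is taken within each library and does not depend on scaling between libraries.

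The RNA that the mitochondrial ribosome is built on and the messages it reads were also higher in adipocytes. The rRNAs mt-Rnr1 and mt-Rnr2 rose by log2 fold changes of 2.26 (SE 0.38) and 2.34 (SE 0.28), with adipocyte library 2 the highest for both. Of the 13 mitochondrially encoded protein genes 12 were called higher, with a median log2 fold change of 1.58. The gene not called was mt-Co3, at 370.0, 347.0 and 534.4 CPM in adipocytes against 0.117, 0.119 and 159.1 CPM in preadipocytes. The groups did not overlap, but preadipocyte library 3 stood far above the other preadipocyte libraries (adjusted p = 0.115, edgeR). With the replicate block mt-Co3 was called higher and its log2 fold change was 5.06, against 2.97 without it. Because mt-Co3 was near 0 in preadipocyte libraries 1 and 2, the size of either fold change is uncertain. The cause of those near-0 values was not tested. The 13 mitochondrially encoded protein genes summed to 137750, 161739 and 171476 TPM in adipocytes against 59120, 82199 and 76249 TPM in preadipocytes. The gene mt-Atp8 weighs heavily in these sums, with means of 53292 TPM in adipocytes and 21551 TPM in preadipocytes. In CPM it averaged 1908 of 82489 in adipocytes and 544 of 28529 in preadipocytes. For the rRNAs and the messages alike, how much of the RNA was kept depends on a selection step that the sources do not give.

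**Figure D3:**
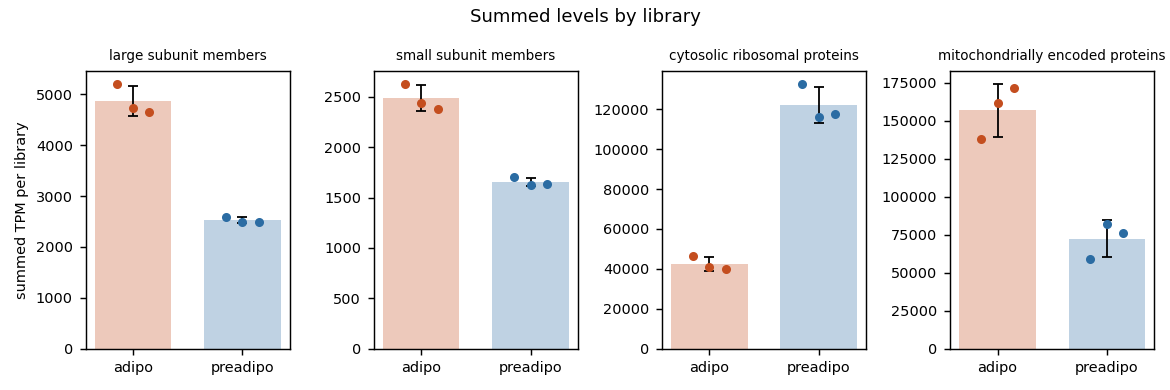
Summed TPM per library of the large subunit, the small subunit, cytosolic ribosomal proteins and mitochondrially encoded proteins, in adipocytes (left in each panel) and preadipocytes (right). Points are libraries, bars are means and whiskers SDs (n = 3). The adipocyte sums are higher in the panels of mitochondrial genes and lower in the cytosolic panel, at 39886 to 46520 against 115850 to 132680 TPM.

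Other parts of the mitochondrial translation system moved with the members. Over all genes tested, 35.7% were called higher and 37.9% lower. All 5 mitoribosome proteins named without the Mrp prefix were called higher, from Gadd45gip1 at 0.46 to Aurkaip1 at 1.48 on the log2 scale. With total counts alone 4 of the 5 were called higher. Aurkaip1 was at 88.2, 71.9 and 63.2 CPM in adipocytes against 31.8, 23.9 and 24.5 CPM in preadipocytes. Of 13 mitochondrial translation factors 11 were called higher and 0 lower, with a median of 1.35. Taco1, a translational activator of cytochrome oxidase subunit I, rose most (log2 fold change 2.53, SE 0.10), and the elongation factors Tufm and Gfm1 rose by 2.32 and 2.23. The factors not called were Mtrf1l (0.33, adjusted p = 0.0551) and Guf1 (-0.20, adjusted p = 0.117, edgeR). With the replicate block Mtrf1l was called higher and Guf1 lower (adjusted p = 0.0242 and 0.0171, edgeR). Of 28 genes for ribosome assembly and rRNA modification 22 were called higher and 0 lower, with a median of 0.95. With the replicate block 26 were called higher and 1, Mterf4, lower. The pseudouridine synthase-like gene Rpusd3 rose most (log2 fold change 2.74, SE 0.12). Of 14 tested genes for mitochondrial transcription and mRNA handling 13 were called higher, led by the elongation factor Tefm (log2 fold change 2.17, SE 0.10), and Pnpt1 was not called (0.10). On log2(TPM + 1) these lists were less uniform. The assembly genes had 14 called higher and 5 lower, and the translation factors 11 higher and 2 lower. Of the 5 proteins without the Mrp prefix 3 were called higher and 0 lower, and of the transcription and mRNA genes 11 higher and 1 lower. Over all genes, 22.2% were higher and 56.6% lower on that scale.

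The nuclear regulators usually tied to these genes did not move as a block. Of 11 listed, 4 were called higher (36.4%), 3 lower and 4 not called, against 35.7% higher and 37.9% lower over all genes. With total counts alone 4 were called higher and 5 lower. The coactivator Ppargc1b was at 47.1, 50.9 and 48.6 CPM in adipocytes against 1.53, 1.42 and 1.27 CPM in preadipocytes (log2 fold change 5.12, SE 0.11). The nuclear receptor Esrra (2.76), Myc (1.99) and the coactivator Ppargc1a (1.22) were also called higher. The coactivator Pprc1 was lower in adipocytes, at 41.4, 37.7 and 38.1 CPM against 78.6, 68.6 and 70.2 CPM in preadipocytes (log2 fold change -0.89, SE 0.08), as were Gabpb1 (-0.50) and Gabpb2 (-0.39), subunits of the GABP factor. The DNA-binding factors Nrf1 (0.10), Gabpa (0.05) and Yy1 (-0.01) were not called, nor was Perm1 (-0.28).

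**Figure D4:**
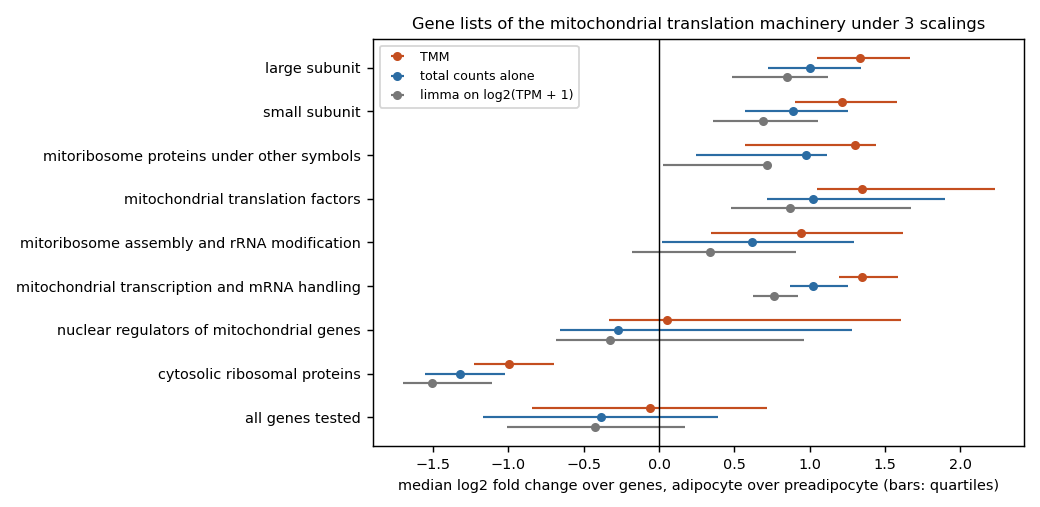
Median log2 fold change (adipocyte over preadipocyte, bars: quartiles over genes) of each gene list under TMM, total counts alone and limma on log2(TPM + 1). The medians of both subunits stay above 0 under all 3 scalings (1.33, 1.004 and 0.85 for the large subunit), and the cytosolic ribosomal proteins stay below 0.

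Many members start close to another gene on the opposite strand. A start within 1000 bases of another protein-coding gene's start on the opposite strand was found for 33 of 78 members (42.3%), against 2087 of 12449 tested protein-coding genes (16.8%). Some of these pairs run away from each other, and others overlap at their starts, such as Mrpl48 with Rab6a and Mrpl43 with Twnk. The median log2 fold change was 1.27 for these 33 members and 1.26 for the other 45. Mrpl46 and Mrps11 are each other's partner. Of the 31 partners that are not members, 29 were tested, with 15 called higher, 7 lower and 7 not called, and a median log2 fold change of 0.22. The shares over all genes tested were 35.7% higher and 37.9% lower. Partner calls were not counted under the other scalings, and with total counts alone the median gene shifted by -0.33. The members of these pairs were all called higher. With the replicate block, 8 partners were called lower and 6 not called. The partner with the lowest fold change was the kinetochore gene Ska3, which starts 49 bases from Mrpl57, a mitochondria-specific large subunit protein. Mrpl57 was at 26.2, 22.6 and 20.9 CPM in adipocytes against 8.0, 6.8 and 7.2 CPM in preadipocytes (log2 fold change 1.66, SE 0.12). Ska3 was at 0.562, 0.327 and 0.433 CPM in adipocytes against 1.64, 1.22 and 1.56 CPM in preadipocytes (log2 fold change -1.73, SE 0.27). Its counts were low, at 30 in total over the 3 adipocyte libraries. Other partners called lower were Eme1 beside Mrpl27 (-1.58, SE 0.22) and Mtbp beside Mrpl13 (-1.45, SE 0.15). Mrpl49, another mitochondria-specific protein, starts 59 bases from Fau, which encodes the precursor of a cytosolic ribosomal protein. Mrpl49 was at 86.08, 80.02 and 75.02 CPM in adipocytes against 40.9, 35.4 and 36.3 CPM in preadipocytes, and Fau at 404.6, 321.5 and 315.3 CPM in adipocytes against 651.5, 477.1 and 505.3 CPM in preadipocytes (log2 fold changes 1.10 and -0.65). Mrpl51 starts 100 bases from the condensin gene Ncapd2, which was called higher by a small margin (log2 fold change 0.22, adjusted p = 0.0496, edgeR). In TPM Ncapd2 was wholly lower in adipocytes, at 13.0, 12.5 and 14.8 against 23.0, 16.0 and 15.5 in preadipocytes, so its direction depends on the scaling. Pairs that rose together included Mrps27 with Ptcd2 (1.62 and 2.04) and Mrpl36 with the complex I gene Ndufs6 (1.19 and 1.71). Mrpl36 and Ndufs6 overlap at their starts, over 2.58% of the exonic bases of Mrpl36. Without a strand setting, reads there could belong to either gene. Apart from Mrpl51, these pairs were chosen for display after their values were seen.

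**Figure D5:**
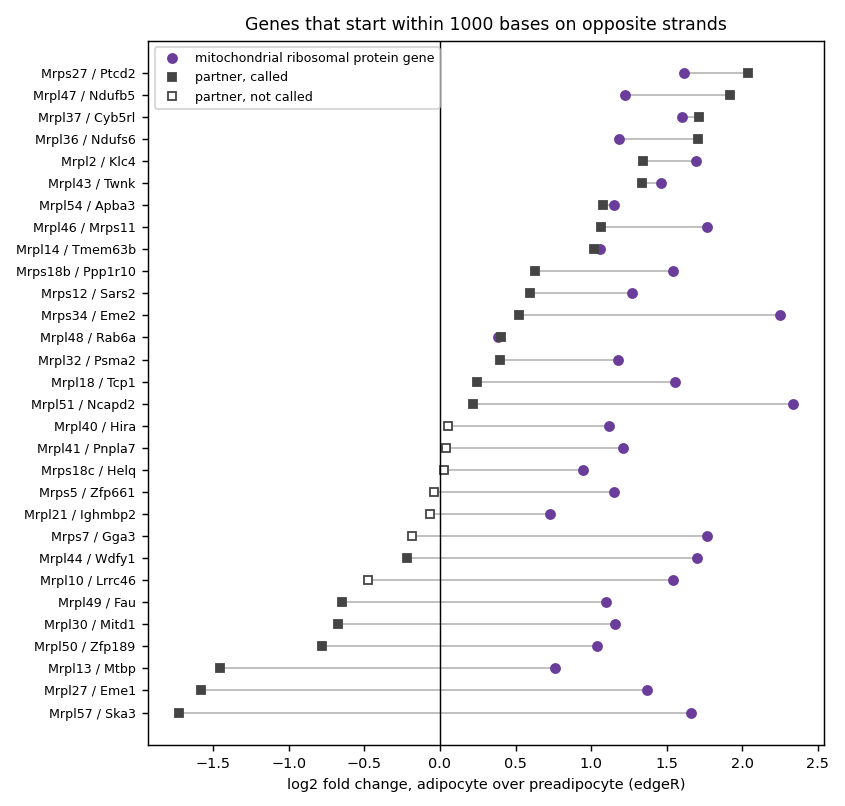
edgeR log2 fold changes (adipocyte over preadipocyte) of members and of the tested genes that start within 1000 bases on the opposite strand, 1 pair per row, with Mrpl46 and Mrps11 as the pair in which both are members. All member points lie to the right of 0, while the partners run from -1.73 (Ska3) to 2.04 (Ptcd2).

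Mrpl12 has no such partner, but its neighbour on the same strand, the mitochondrial dicarboxylate carrier gene Slc25a10, starts 2774 bases beyond its end and rose more. Slc25a10 was at 867.6, 615.7 and 593.4 CPM in adipocytes against 35.62, 25.01 and 26.72 CPM in preadipocytes (log2 fold change 4.57, SE 0.20). On the other side Hgs, 628 bases away, was not called (0.13).

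The promoters, from RefSeq on GRCm38.p6 and covering 250 bases before to 50 after the start, were available for 69 members. They are shown for the member with the largest rise, for Mrpl57 and Mrpl49, whose partners were called lower, and for Mrpl51 and Mrpl52. The partner of Mrpl51 was called higher by a small margin with TMM but was lower in TPM, and Mrpl52 was not called. This choice of promoters was made after the values were seen. Each is given on the strand of its gene, with a GABPA motif match in capitals where there is one. Mrpl12 lies at chr11:120484387-120484686 (plus strand), Mrpl51 at chr6:125191950-125192249 (plus), Mrpl57 at chr14:57825989-57826288 (plus), Mrpl49 at chr19:6057706-6058005 (minus) and Mrpl52 at chr14:54426659-54426958 (plus). The distances between paired genes use GENCODE gene starts, which can differ from the RefSeq starts used here. For Mrpl51 the GENCODE start, 125191801, lies before the window shown, so that window does not hold the start used for its pair with Ncapd2.
Mrpl12: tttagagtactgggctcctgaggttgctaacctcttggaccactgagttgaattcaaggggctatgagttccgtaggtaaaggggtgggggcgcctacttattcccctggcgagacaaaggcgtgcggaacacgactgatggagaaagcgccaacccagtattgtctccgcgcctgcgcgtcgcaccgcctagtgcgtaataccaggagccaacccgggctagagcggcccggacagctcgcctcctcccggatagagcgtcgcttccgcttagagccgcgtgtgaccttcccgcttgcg
Mrpl51: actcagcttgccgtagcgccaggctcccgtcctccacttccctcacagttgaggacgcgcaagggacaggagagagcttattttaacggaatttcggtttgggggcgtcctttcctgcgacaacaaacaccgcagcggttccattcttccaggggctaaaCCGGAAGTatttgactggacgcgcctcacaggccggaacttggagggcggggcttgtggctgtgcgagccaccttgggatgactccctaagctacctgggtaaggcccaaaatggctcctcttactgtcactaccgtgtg
Mrpl57: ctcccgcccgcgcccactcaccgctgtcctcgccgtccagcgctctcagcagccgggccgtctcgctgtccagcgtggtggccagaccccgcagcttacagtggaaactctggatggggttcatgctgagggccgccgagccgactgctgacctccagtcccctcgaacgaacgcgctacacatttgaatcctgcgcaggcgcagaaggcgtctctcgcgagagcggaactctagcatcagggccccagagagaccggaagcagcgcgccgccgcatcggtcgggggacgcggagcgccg
Mrpl49: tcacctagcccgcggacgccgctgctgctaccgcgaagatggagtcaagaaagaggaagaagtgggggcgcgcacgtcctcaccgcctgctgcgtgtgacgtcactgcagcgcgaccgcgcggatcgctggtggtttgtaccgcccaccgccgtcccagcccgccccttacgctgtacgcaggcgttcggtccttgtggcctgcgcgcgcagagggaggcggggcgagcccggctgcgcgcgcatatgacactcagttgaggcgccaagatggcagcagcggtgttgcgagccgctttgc
Mrpl52: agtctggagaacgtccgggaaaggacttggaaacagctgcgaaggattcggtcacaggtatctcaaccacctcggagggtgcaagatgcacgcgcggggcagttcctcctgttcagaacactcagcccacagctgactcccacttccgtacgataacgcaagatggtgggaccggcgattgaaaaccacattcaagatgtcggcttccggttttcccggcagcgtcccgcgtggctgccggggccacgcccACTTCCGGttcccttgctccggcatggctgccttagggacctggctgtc

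Both strands of each window were searched for 6 exact motifs. The NRF1 motif GCGCATGC was in 8 of 69 member promoters (11.6%), against 5.63% of 9749 promoters of tested coding genes and 2.8% of all 27025. The GABPA motif CCGGAAGT was in 11 (15.9%), against 8.64% and 4%. The YY1 motif AAGATGGCG was in 8 (11.6%), against 3.29% and 1.49%. The ESRRA motif TCAAGGTCA and the PPARG DR1 motif were in 0 member promoters, and both were rare in all promoters (0.407% and 0.0444%). The E-box CACGTG was in 5 (7.25%), against 10.2% and 7.24%. These are letter matches in a short window and no measure of binding. The median log2 fold change of members with the motif was 1.42 for NRF1, 1.41 for GABPA and 1.33 for YY1, beside 1.24, 1.22 and 1.26 for those without it. The window shown for Mrpl51 holds the GABPA motif as written, and that of Mrpl52, which was not called, holds it on the other strand. Mrpl12 holds none of the 6 motifs. The median GC content was 58.3% for member promoters and 61% for tested coding genes.

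The counts of several members carry more doubt than their errors show. Mrpl53 shares 84.4% of its 31-base words with the overlapping gene Gm42688, so how its reads were divided is uncertain (log2 fold change 1.597 for Mrpl53, -0.17 for Gm42688). Mrpl27 (35.5%), Mrpl22 (29.8%), Mrpl41 (21.1%) and Mrps36 (21%) also share words with other annotated genes, mainly processed pseudogenes. Mrps6 overlaps Gm49711 and Slc5a3 on its own strand, and Slc5a3 was lower in adipocytes (log2 fold change -1.79). Genes on the opposite strand overlap the exonic bases of Mrpl19 (36%), Mrpl43 (33.4%, Twnk), Mrps18b (30.5%), Mrpl24 (26.3%), Mrps27 (24.2%) and Mrpl47 (24.2%), and smaller parts of others. Without a strand setting, the reads there are uncertain too. The abundance-weighted transcript length that RSEM reports was within 5% between the groups for 61 members. It was wholly shorter in adipocytes for 24 members and wholly longer for 8, against 11.3% and 9.64% of all genes. Mrps5, a homologue of a bacterial small subunit protein, had the shortest relative length, at 860, 925 and 924 bases in adipocytes against 1091, 1156 and 1130 bases in preadipocytes. Mrpl47, a large subunit protein, had the longest, at 2080, 1764 and 1687 bases in adipocytes against 1540, 1563 and 1505 bases in preadipocytes. For Mrpl47 the groups overlapped in TPM but not in CPM.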

How the data were processed

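RNA of 6 3T3-L1 samples was sequenced, with 3 adipocyte and 3 preadipocyte libraries. The authors deposited 1 gene table per library in RSEM layout. The submitters' processing notes list the tools Bowtie, Bowtie2, RSEM and DESeq2 and the builds GRCm38 and mm10, without versions or roles. The deposited expected counts are estimates that divide reads matching several genes, with no scaling across samples. TPM values, also deposited, sum to a fixed total in every library. The deposited lengths are other values per gene, and FPKM was not used. Gene identifiers were matched to GENCODE M21 (54723 of 54752).

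Expected counts were rounded, filtered with filterByExpr and tested with edgeR 4.0.16 (R 4.3.3) by the quasi-likelihood F-test after TMM scaling, with a single term for group and p-values adjusted by Benjamini-Hochberg over 14726 genes at 0.05. limma 3.58.1 and DESeq2 1.42.0 served as alternatives, with other scalings, filters and left-out libraries. The test was also run on simulated counts with a fixed dispersion and few changed genes, balanced between rises and falls. In the data 73.5% of genes were called, so that run does not cover this setting. CPM uses TMM-scaled library sizes, and the share fit uses the summed member counts. For same-numbered libraries, each library's departure from its group mean gave correlations over genes of 0.659, 0.301 and 0.265, all above the limit of 0.1. Differently numbered pairs ran from -0.567 to 0.446, and adipocyte 3 with preadipocyte 2 (0.446) and adipocyte 2 with preadipocyte 3 (0.164) were also above it, so this check does not separate numbers 2 and 3. By that limit, an alternative fit took that number as a replicate block. Between libraries of 1 group, chi-square per degree of freedom was 2.99 to 39.7, so none was a copy of another.

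The members and lists were chosen with earlier results of these data known. The genes named by rule are the 6 largest and 6 lowest fold changes, members not called, the 3 most abundant of each subunit, members of known role, and the largest rise and fall of each other list. Fastkd4, Mrpp3 and Prorp of the lists did not match a symbol. Other named genes were chosen after their values were seen.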

Additional observations from a re-analysis of the deposited data

How the results depend on the processing

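The 75 members called higher and the 0 called lower were also found with RLE factors, limma-voom, DESeq2, no low-count filter, a minimum of 1 CPM in 3 libraries, the replicate block (75 higher, 0 lower) and without both libraries numbered 1, a setting chosen after seeing the data. Members called lower numbered 2 with upper-quartile factors, 3 with total counts alone, 4 on log2(TPM + 1) and 4 on log2(TPM + 0.1), where the median gene also shifted. Leaving out 1 library at a time gave 73 to 75 members higher and 0 to 0 lower. Genes called higher over the whole table numbered 3266 on log2(TPM + 1) and 3248 on log2(TPM + 0.1), against 5252, and 4929 to 5466 with 1 library left out. In the share fit, leaving out 1 library gave 20 to 26 members with a gain and 22 to 28 with a loss, and the replicate block gave 30 and 33. The replicate block changed no member call in the other fit. Among the other lists it also called Gtpbp10, Dhx30, Mettl17 and Rpusd4 higher, Rpl36al higher and Rpl36, Rpl36a-ps1 and Rpl7a lower, and the partner Gga3 lower, and over the whole table it called 5763 genes higher and 6212 lower.

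Fold changes that changed sign were those of Mrpl48 (-0.0576 on log2(TPM + 1) and -0.0594 on log2(TPM + 0.1)), Mrps6 (-0.0633 with total counts alone, -0.25 and -0.25 on the TPM scales) and Mrps25 (-0.0729 with upper-quartile factors, -0.27 with total counts alone, -0.32 and -0.32 on the TPM scales). The cause was not tested. Over the 33 genes named by rule and their 561 alternatives, 532 kept direction and call, 12 lost the call, 8 gained it and 9 changed sign. Each member had at least 65 counts in each library, and the standard errors of the log2 fold change reached 0.20, for Mrps12.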
